A study of Mus musculus with 2 samples.

Results

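The genes described here encode 6 natural killer (NK) cell receptors (Ncr1, Klrb1c, Klre1, Klrk1, Klrd1 and Klrc1) and a pair of adaptors, Tyrobp and Hcst, through which activating receptors signal. They were chosen by symbol, as 8 of the 30457 genes listed in either expression table, and all 8 were listed in both tables. The cells were spleen cells of female C57BL/6J mice. The mice, 10 weeks old, carried subcutaneous Lewis lung carcinoma (a transplanted mouse tumor line) and were given 200 µg of anti-CD4 antibody on day 5 and again on day 9, and spleens were taken on day 12. The suspension combined 3 spleens and had been stored frozen before use, and 2000 cells went onto a BD Rhapsody cartridge, in which each cell is captured with a barcoded bead. The beads were then divided between TAS-Seq, which amplifies cDNA after adding a tail by terminal transferase, and the BD WTA kit, the manufacturer's whole transcriptome workflow. Both libraries therefore came from the same pool of tumor-bearing, antibody-treated mice, with no untreated group and 1 library per method, and no value below has a replicate check. All intervals are exact 95% intervals and cover counting error only. Reads were counted without molecular identifiers, so they are not independent molecules.

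NK cells are cytotoxic lymphocytes that weigh signals from activating and inhibitory receptors. Ncr1 encodes NKp46, an activating receptor of the immunoglobulin family, and Klrb1c encodes NK1.1, the lectin-like antigen by which NK cells of C57BL/6 mice are recognized. Klrd1 encodes CD94, which pairs with NKG2 proteins such as the product of Klrc1 (NKG2A) to bind the nonclassical class I molecule Qa-1, and the CD94-NKG2A pair is inhibitory. Klre1 encodes another lectin-like receptor of the same gene complex, and Klrk1 encodes NKG2D, an activating receptor for stress-induced ligands. The adaptor DAP12, product of Tyrobp, carries an immunoreceptor tyrosine-based activation motif and is also used by receptors of myeloid cells, whereas DAP10, product of Hcst, recruits phosphoinositide 3-kinase and pairs with NKG2D. CD94 and NKG2D are also known on activated and memory CD8 T cells.

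In the GENCODE annotation of mouse build GRCm38, 5 of the receptor genes lay within 900.5 kb of chromosome 6. Klrb1c spanned 128778485 to 128789215 on the minus strand. Further along, Klre1 (129577905 to 129585827, plus strand), Klrd1 (129591782 to 129598775, plus), Klrk1 (129610323 to 129623864, minus) and Klrc1 (129666015 to 129678973, minus) lay within 101.07 kb. The other 3 genes were on chromosome 7. Ncr1 spanned 4337724 to 4345164 on the plus strand, and Tyrobp (30413760 to 30417585, plus) and Hcst (30417712 to 30419854, minus) ended 126 bases apart, facing each other without overlap. Klrb1c was the only member whose span overlapped another gene, the predicted protein-coding gene Gm44511. Among all stretches of 50 bases in the annotated transcripts, 38.6% of those of Klrc1 occurred in other genes, 36.6% in Klrc2, and 16.98% of those of Klrb1c did, 12.4% in Gm44511. The figure was 0.28% for Klre1 and 0 for Ncr1, Klrk1, Klrd1, Tyrobp and Hcst. Counts of Klrc1 and Klrb1c are therefore uncertain where reads fell on shared stretches.

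Promoters are shown because 5 receptor genes had most of their reads in NK-like cells, as described below, while Hcst did not. RefSeq promoter sequence (GRCm38.p6) was found for 6 of the 8 members, without Klrd1 and Tyrobp, and the 250 bases before the first listed start were searched on both strands for TGTGGT (the core bound by Runx factors), TCACAC (a core bound by T-box factors) and AGGAAG (a core bound by Ets factors). TGTGGT or its complement was present in the windows of all 5 receptor genes with a promoter (Ncr1, Klrb1c, Klre1, Klrk1 and Klrc1) and absent from that of Hcst, against 14.2% of the first promoters of 27025 genes. Klre1 has a later listed start whose window held no TGTGGT and a match each of the other motifs. TCACAC was present for Ncr1, against 12.2% of first promoters, and AGGAAG for Klrb1c and Hcst, against 29.2%. Windows of Ncr1, Klrk1, Klrc1 and Hcst are printed 5′ to 3′ along the gene, with TGTGGT or ACCACA in capitals. The windows of Klrb1c and Klre1 lay inside the GENCODE spans of these genes and are not printed.
Ncr1, chr7:4337465-4337714, plus strand: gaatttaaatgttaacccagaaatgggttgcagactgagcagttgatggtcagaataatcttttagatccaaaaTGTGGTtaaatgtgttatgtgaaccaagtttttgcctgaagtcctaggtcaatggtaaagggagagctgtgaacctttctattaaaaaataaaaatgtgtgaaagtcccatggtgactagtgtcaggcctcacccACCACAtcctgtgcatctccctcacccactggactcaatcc
Klrk1, chr6:129623865-129624114, minus strand: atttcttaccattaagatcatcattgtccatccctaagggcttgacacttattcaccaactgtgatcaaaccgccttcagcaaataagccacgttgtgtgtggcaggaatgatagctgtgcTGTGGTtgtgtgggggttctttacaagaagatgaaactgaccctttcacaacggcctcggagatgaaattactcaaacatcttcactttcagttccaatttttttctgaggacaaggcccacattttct
Klrc1, chr6:129678974-129679223, minus strand: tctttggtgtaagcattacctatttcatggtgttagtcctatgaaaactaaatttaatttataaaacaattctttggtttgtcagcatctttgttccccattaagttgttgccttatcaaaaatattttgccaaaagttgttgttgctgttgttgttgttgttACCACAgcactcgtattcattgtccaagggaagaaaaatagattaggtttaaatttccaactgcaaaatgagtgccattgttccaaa
Hcst, chr7:30419855-30420104, minus strand: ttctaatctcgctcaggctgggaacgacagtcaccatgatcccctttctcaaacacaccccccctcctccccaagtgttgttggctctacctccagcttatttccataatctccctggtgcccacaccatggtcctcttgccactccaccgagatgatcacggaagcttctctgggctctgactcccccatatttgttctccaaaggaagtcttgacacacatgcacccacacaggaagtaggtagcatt
The core lay 176 and 41 bases before the start of Ncr1, 129 bases before that of Klrk1 and 87 bases before that of Klrc1. No 2 matches of the searched motifs overlapped in the printed windows. A match describes these letters and does not show that a factor binds there.

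There were 736 barcodes in TAS-Seq and 716 in BD WTA, with no barcode shared, and 732 and 708 cells passed the filters. Total reads were 38656790 and 31608259, with medians of 46557 and 38426 reads per cell kept. Cells of both libraries were clustered together without the members and without the lists of other receptors and adaptors named below, so that the classes did not rest on these genes. The signalling and ligand genes described below were not left out, so the classes may rest partly on them. The NK-like class was cluster 7, with 19 TAS-Seq and 26 BD WTA cells. It was named from Gzma, Gzmb, Prf1, S1pr5, Eomes, Il18rap and Nkg7, and no marker of the T list (Cd3e, Cd3d, Cd3g, Trac, Cd5 and Cd6) was raised in it. Its 10 leading genes (Ccl5, Gzma, Fcer1g, Tyrobp, Nkg7, Klre1, AW112010, Klrb1c, Il2rb and Ncr1) held 3 genes of the memory CD8 list and 2 of the NK list, with Nkg7 in both, so that libraries are compared in it as cluster 7. The memory-like CD8 T class had 39 and 18 cells, led by Ly6c2, Nkg7 and Ccl5. The other T cells numbered 244 and 273, and B-like cells 405 and 364. The myeloid-like class had 25 and 27 cells, of which 10 and 11 were in a neutrophil-like cluster led by S100a9 and S100a8. A further 15 and 16 were in cluster 9, which was left unnamed and was led by Fcer1g, Tyrobp and Mpeg1. For shares of cells, each cell was thinned to 20000 reads and shallower cells were left out, which kept 19 and 23 NK-like, 39 and 18 memory-like CD8, 235 and 250 other T, 23 and 23 myeloid-like and 391 and 331 B-like cells. Levels are pooled reads of the class scaled to 1000000 reads (CPM), from unthinned cells.

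In NK-like cells the 6 receptors were found together. At 20000 reads per cell, every NK-like cell had reads of at least 4 of the 6 receptors, and all 6 were read in 10 of 19 TAS-Seq and 9 of 23 BD WTA cells, with medians of 6 and 5 receptors per cell. With at least 5 reads required, the range was 2 to 6 receptors in both libraries, with medians of 5 and 4. Over the 8 members, the median share of NK-like cells with a read was 92.1% in TAS-Seq and 89.1% in BD WTA. In B-like cells, which should lack these receptors, 13.6% of 391 TAS-Seq cells (10.3 to 17.4%) and 1.51% of 331 BD WTA cells (0.492 to 3.49%) had a read of any of the 6 at the same depth. With at least 5 reads this was 1 cell in each library, 0.256% and 0.302%. Single receptor reads in TAS-Seq cells are thus read as background below, and shares are also given at 5 reads.

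**Figure D1:**
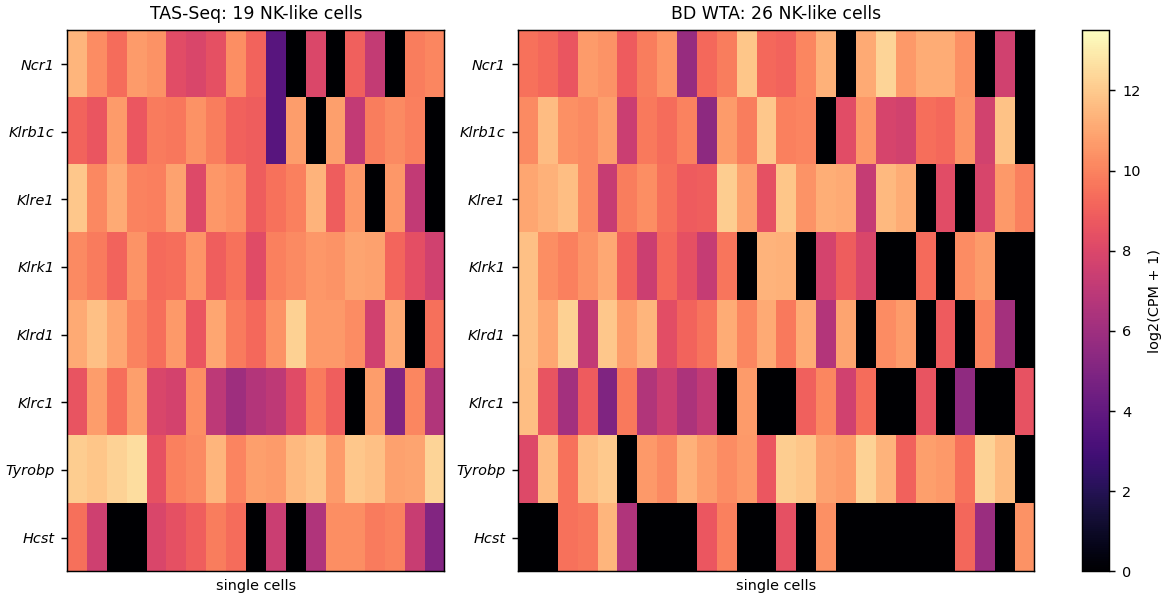
Each column is an NK-like cell of TAS-Seq (19 cells, left) or BD WTA (26 cells, right), each row is a gene, and color gives log2(CPM + 1), with black for no read. Receptor rows are mostly filled in both libraries, with more empty squares for Klrk1, Klrc1 and Hcst in BD WTA.

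Ncr1 ranged from 0 to 2685 CPM over the 19 TAS-Seq NK-like cells, with a median of 506 CPM, and from 0 to 5051 CPM over the 26 BD WTA cells, with a median of 924 CPM. It was read in 78.9% (54.4 to 93.9%) and 91.3% (72.0 to 98.9%) of NK-like cells at equal depth. Klrb1c ranged from 0 to 1762 CPM in TAS-Seq, median 832 CPM, and from 0 to 3884 CPM in BD WTA, median 956 CPM. Both NK-identifying receptors were thus present in most but not all cells of the class, and 13 of 19 and 19 of 23 cells had reads of both.

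Klre1 had medians of 1007 CPM (0 to 3960) in TAS-Seq and 1227 CPM (0 to 4438) in BD WTA. Klrk1, the NKG2D gene, was read in each of the 19 TAS-Seq NK-like cells, from 196 to 1939 CPM with a median of 872 CPM. In BD WTA it ranged from 0 to 3372 CPM with a median of 508 CPM, and 19 of 23 cells had a read at equal depth (82.6%, 61.2 to 95.1%). The intervals of these shares overlapped (82.4 to 100% in TAS-Seq).

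Klrd1, the shared CD94 subunit, ranged from 0 to 4779 CPM in TAS-Seq, median 1363 CPM, and from 0 to 4797 CPM in BD WTA, median 1060 CPM. Klrc1, its NKG2A partner, had the lowest shares of cells with 5 or more reads among the receptors, 57.9% (33.5 to 79.7%) in TAS-Seq and 39.1% (19.7 to 61.5%) in BD WTA. With a single read accepted, 17 of 19 TAS-Seq and 14 of 23 BD WTA cells had both transcripts of the CD94-NKG2A pair. Reads of Klrd1 without Klrc1 were found in 1 and 6 cells. With 5 reads required of each, 10 of 19 and 5 of 23 cells had both, and 8 and 12 had Klrd1 alone. The number of shared stretches with Klrc2 limits how far Klrc1 reads can be assigned.

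Tyrobp was read in all 19 TAS-Seq NK-like cells, from 352 to 6127 CPM with a median of 2737 CPM, and in 22 of 23 BD WTA cells at equal depth. Over all 26 BD WTA cells it ranged from 0 to 4975 CPM, with a median of 1660 CPM. Hcst was found in fewer cells. In TAS-Seq it ranged from 0 to 1270 CPM with a median of 247 CPM, and 14 of 19 cells had a read. In BD WTA the range was 0 to 2715 CPM with a median of 0, and 10 of 23 cells had a read (43.5%, 23.2 to 65.5%). The 10 BD WTA cells with Hcst reads also had Klrk1 reads at this depth, and 9 had Klrk1 reads without Hcst. With 5 reads required, 6 of 8 BD WTA cells with Hcst also had Klrk1.

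Levels of each member in cluster 7 differed by less than 2-fold between the libraries. Pooled levels in TAS-Seq and BD WTA were 614 and 1047 CPM for Ncr1, 746 and 927 CPM for Klrb1c, 1168 and 1311 CPM for Klre1, and 932 and 713 CPM for Klrk1. They were 1342 and 1305 CPM for Klrd1, 623 and 397 CPM for Klrc1, 2462 and 1911 CPM for Tyrobp, and 406 and 319 CPM for Hcst. On the log2 scale, TAS-Seq over BD WTA ran from -0.77 for Ncr1 to 0.65 for Klrc1, with a median of 0.19 over the 8 members. Over 3821 genes at 50 CPM or more in the cluster the median was 0.02, with 5% of the genes below -2.12 and 5% above 2.20. None of the 8 members was 2-fold higher or lower in TAS-Seq, while 18.4% and 18.2% of these genes were. The members stood at 319 CPM or more and these genes at 50 CPM or more, so the spreads were not compared at like levels. The Poisson intervals of the libraries overlapped for Klrd1 and not for the other 7 members, and for every member the ranges of single cells overlapped.

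**Figure D2:**
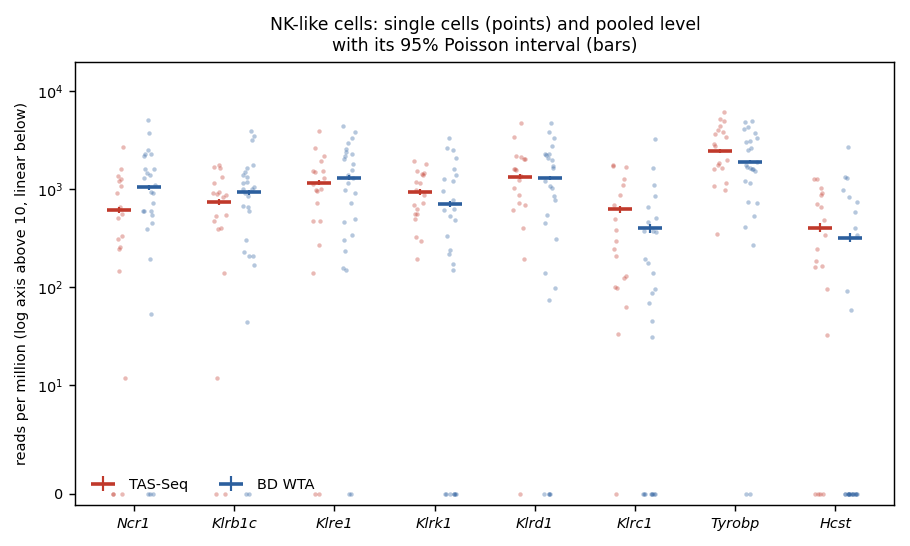
Points are single NK-like cells and bars are the pooled level with its 95% Poisson interval, for TAS-Seq (red) and BD WTA (blue), in CPM on an axis that is logarithmic above 10 and linear below. Pooled levels of the libraries differ by less than 2-fold for each gene, and cells without reads of a gene lie at 0.

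Against T cells outside the memory-like CD8 class, 7 of the 8 members were at least 4-fold higher in NK-like cells in both libraries. The exception was Hcst. For comparison, 7.58% of 3695 genes in TAS-Seq and 7.29% of 3620 genes in BD WTA were that much higher. Those genes had a mean of the NK-like and other T levels of 50 CPM or more. In other T cells the called members apart from Klrd1 stood at 31.3 CPM or less in both libraries. They reached that mean only through NK-like cells, so the comparison with these percentages supports nothing further for them. Ncr1 stood at 6.07 CPM in other T cells of TAS-Seq (101.2-fold lower than in NK-like cells, 80.2 to 129). It had no read in other T cells of BD WTA (4305-fold lower with 3 reads over the class as the floor, exact lower limit 3495-fold). Klre1 was 50.7-fold higher in NK-like cells of TAS-Seq (44.7 to 57.6) and, at the same floor, 5393-fold higher in those of BD WTA (exact lower limit 4380-fold). Klrb1c was 24.1-fold (21.4 to 27.3) and 52.9-fold (45.7 to 61.6) higher, Klrk1 29.8-fold (26.5 to 33.5) and 63.3-fold (52.8 to 76.3) higher, and Klrc1 44.0-fold (37.4 to 52.1) and 20.4-fold (17.4 to 24.0) higher. Tyrobp was 244-fold (205 to 292) and 173-fold (146 to 208) higher. The ratios of Klrd1 were smaller and almost equal between libraries, 9.48-fold (8.84 to 10.2) and 9.50-fold (8.85 to 10.2). Hcst was 1.42-fold (1.28 to 1.57) and 1.34-fold (1.197 to 1.496) higher.

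**Figure D3:**
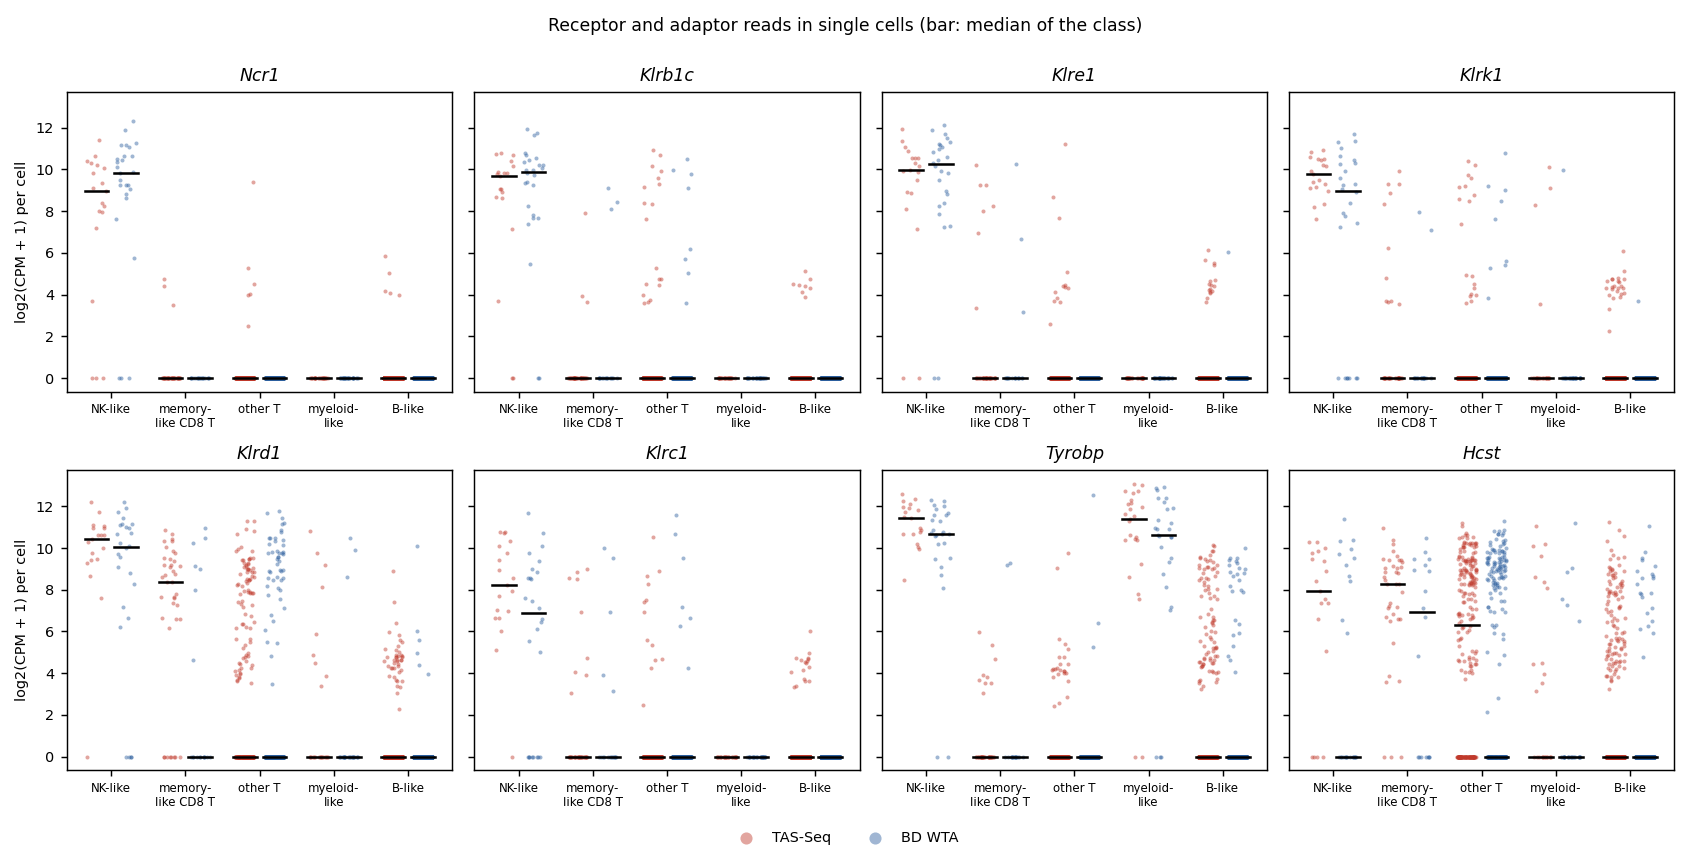
Each panel is a gene, each point a cell, and black bars are class medians, as log2(CPM + 1) in 5 classes of TAS-Seq (red) and BD WTA (blue). Most reads of Ncr1, Klrb1c, Klre1, Klrk1 and Klrc1 lie in NK-like cells, Klrd1 extends into T cells, Tyrobp into myeloid-like cells and Hcst into every class.

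Some of these ratios rested on single cells of the other T class. In TAS-Seq, 93.8% of the Ncr1 reads and 85.7% of the Klre1 reads of other T cells came from 1 cell with reads of all 6 receptors (76 of Ncr1, 264 of Klre1, 96 of Tyrobp). That cell had 1893 reads of the granzyme gene Gzma and 2 reads over Cd3d, Cd3e, Cd3g and Trac, which encode parts of the T-cell receptor complex. In BD WTA, 89.0% of the Tyrobp reads of other T cells came from 1 cell with no read of those 4 genes and 60 reads of Siglech, a marker of plasmacytoid dendritic cells. Leaving out the other T cells with fewer than 5 reads over the 4 genes, 9 in TAS-Seq and 8 in BD WTA, moved the TAS-Seq ratio of NK-like over other T cells to 1536-fold (655 to 4747) for Ncr1, 332-fold (246 to 460) for Klre1 and 811-fold (589 to 1149) for Tyrobp. In BD WTA it left 1 Tyrobp read in 265 other T cells. This setting was chosen after the values were seen. The ratio of Klrd1 was then 9.43-fold in TAS-Seq and 9.32-fold in BD WTA, and 7 of the 8 members stayed at least 4-fold higher in both libraries.

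NK-like cells were 2.60% of TAS-Seq and 3.67% of BD WTA cells and held 2.66% and 3.54% of all reads. They held 87.4% and 100% of the reads of Ncr1, 68.0% and 93.8% of those of Klre1, 63.8% and 79.6% of those of Klrb1c, 56.8% and 80.5% of those of Klrk1, and 67.3% and 55.7% of those of Klrc1. The shares were lower for Klrd1, with 27.3% and 38.5%, for Tyrobp, with 30.7% and 39.8%, and lowest for Hcst, with 5.89% and 8.78%. The receptors thus fell into 5 genes with most of their reads in NK-like cells in both libraries and 1, Klrd1, with most of its reads in other cells.

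Klrd1 was also read in memory-like CD8 T cells, the T cells that share Ccl5, Ly6c2, Il2rb and Eomes with NK cells. In TAS-Seq it ranged from 0 to 1875 CPM over the 39 cells, with a median of 330 CPM, and in BD WTA from 0 to 2016 CPM over 18 cells, with a median of 0. Pooled levels were close, 434 CPM (411 to 457) and 442 CPM (401 to 485). They were 3.06-fold and 3.21-fold above other T cells (142 and 137 CPM) and 3.10-fold and 2.96-fold below NK-like cells. Pooled Klrd1 levels fell in the same order in both libraries, from NK-like to memory-like CD8 to other T to B-like cells. The Poisson intervals of neighbors in this order did not overlap. These intervals count amplified reads and not cells, so their separation is not taken as support for the order. In BD WTA the memory-like level came from 436 reads, and the median cell of the class had none.

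The share of memory-like CD8 cells with a Klrd1 read at equal depth was 79.5% (31 of 39, 63.5 to 90.7%) in TAS-Seq and 38.9% (7 of 18, 17.3 to 64.2%) in BD WTA, against 29.4% (23.6 to 35.6%) and 17.2% (12.7 to 22.5%) of other T cells and 6.65% and 1.51% of B-like cells. Without thinning the shares were the same in memory-like cells and 36.1% and 17.9% in other T cells. At 5 reads the shares of memory-like cells at equal depth were 59.0% (42.1 to 74.4%) and 27.8% (9.69 to 53.5%), whose intervals overlapped. In BD WTA neither Cd8a nor Cd8b1 was read in as many as 50% of the 18 cells. Membership of this class moved with the settings in both libraries. A per-cell gate on the same markers shared 31 of its 39 TAS-Seq and 7 of its 18 BD WTA cells, clustering with the members kept shared 18 and 9, and clustering each library alone shared 18 in TAS-Seq and gave no such class in BD WTA. Among genes whose mean of the levels in memory-like CD8 and other T cells was 50 CPM or more, 3.66% in TAS-Seq and 17.2% in BD WTA were at least 2-fold higher in memory-like CD8 cells. Klrd1 and Hcst reached that mean in both libraries and Klrc1 in BD WTA through its memory-like level, and of these Klrd1 was 2-fold higher in both, Klrc1 in BD WTA and Hcst in neither. Klre1 did not reach it. Its TAS-Seq level was 3.28-fold above other T cells, and 21.5-fold (15.5 to 30.4) with the cells of few T-cell receptor complex reads left out as above. In BD WTA it was 396-fold above other T cells with 3 reads as the floor (exact lower limit 316-fold), from 95 reads that came mostly from a single cell.

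Within the other T cells, Klrd1 was read most often in cells with reads of the CD8 coreceptor. Cells were divided by 5 or more reads of Cd8a or Cd8b1 against 5 or more reads of Cd4, a division made after the values were seen. In TAS-Seq, 51.7% (40.8 to 62.6%) of 87 cells with Cd8 reads, 7.27% (2.02 to 17.6%) of 55 cells with Cd4 reads and 21.1% (13.2 to 31.0%) of 90 cells with neither had a Klrd1 read. In BD WTA it was read in 33 cells with Cd8 reads (32.7%, 23.7 to 42.7%), in 3 of 60 cells with Cd4 reads (5.00%, 1.04 to 13.9%) and in 7 of 87 cells with neither (8.05%, 3.30 to 15.9%). The intervals of cells with Cd8 reads and cells with Cd4 reads did not overlap in either library. They count cells of 1 pool after a division chosen from the values, so the gap is not taken as support. At 5 reads the Klrd1 shares in cells with Cd8 reads, Cd4 reads and neither were 32.2%, 3.64% and 13.3% in TAS-Seq. In BD WTA these shares were 27.7%, 3.33% and 6.90%. For Hcst the shares in cells with Cd8 and with Cd4 reads were 60.9% (49.9 to 71.2%) and 54.5% (40.6 to 68.0%) in TAS-Seq and 39.6% (30.01 to 49.83%) and 38.3% (26.1 to 51.8%) in BD WTA, and their intervals overlapped.

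The other receptors were sparse in memory-like CD8 T cells. Klrk1 stood at 55.4 CPM (47.4 to 64.3) in TAS-Seq and 36.5 CPM (25.5 to 50.5) in BD WTA, 16.8-fold and 19.6-fold below NK-like cells, and was read in 6 of 39 (15.4%) and 2 of 18 cells (11.1%) at equal depth. Without thinning the shares were 28.2% and 11.1%. At 5 reads this was 5 of 39 and 0 of 18 cells, and the latter has an exact upper bound of 18.5%. Klre1 stood at 75.6 CPM in TAS-Seq and 96.2 CPM in BD WTA, where 93.7% of its reads came from 1 cell. Klrc1 stood at 33.3 and 114 CPM, with 69.0% of the BD WTA reads in 1 cell. Ncr1 had 4 reads in 39 TAS-Seq cells and none in 18 BD WTA cells. NK1.1 transcripts (Klrb1c) had 12 and 49 reads in this class.

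Most of the Klrb1c, Klrk1 and Klrc1 reads of other T cells lay in a single cluster, number 5, led by Trbc2, Trac, Il2rb, Cd3e, Maf and Id2, with 35 TAS-Seq and 38 BD WTA cells. Klrb1c stood there at 207 and 128 CPM and was read in 9 of 34 (26.5%, 12.9 to 44.4%) and 6 of 35 cells (17.1%, 6.56 to 33.6%) at equal depth. Its highest cells reached 1957 and 1467 CPM, within the range of NK-like cells. Klrk1 stood at 176 and 77.0 CPM and Klrc1 at 87.4 and 135 CPM. Ncr1 had no read in this cluster in either library, and Tyrobp had 1 read in TAS-Seq and none in BD WTA. Of the 8 TAS-Seq and 2 BD WTA cells among other T cells with 5 or more reads of at least 3 receptors, 7 and 2 were in this cluster. Each of these 9 cells had between 95 and 409 reads over Cd3d, Cd3e, Cd3g and Trac.

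**Figure D4:**
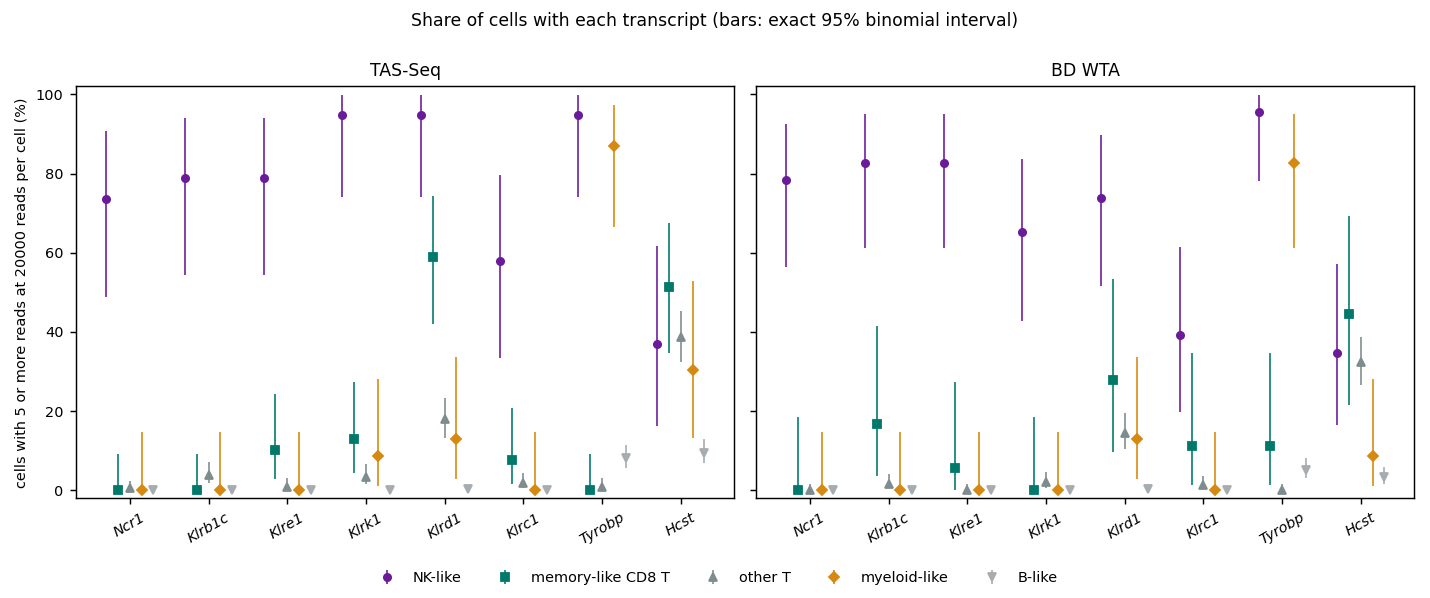
Points give the percent of cells with 5 or more reads of each gene at 20000 reads per cell in TAS-Seq (left) and BD WTA (right), for 5 classes, with exact 95% binomial intervals. The NK-like class (purple) lies above the others for all 6 receptors. For Klrd1 the memory-like CD8 class comes next, and for Tyrobp the myeloid-like class lies near the NK-like class. The intervals of Hcst overlap between NK-like and T-cell classes.

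Tyrobp marked NK-like and myeloid-like cells. In myeloid-like cells it ranged from 0 to 8640 CPM in TAS-Seq, median 2682 CPM, and from 0 to 7875 CPM in BD WTA, median 1584 CPM, and 21 of 23 cells had a read at equal depth in each library (91.3%, 72.0 to 98.9%). In the neutrophil-like cluster all 10 cells of each library at equal depth had Tyrobp reads, at pooled levels of 4546 and 3970 CPM. In cluster 9 the levels were 2392 and 1072 CPM. The pooled level of NK-like over myeloid-like cells was 0.831 (0.791 to 0.873) in TAS-Seq and 1.05 (0.994 to 1.12) in BD WTA.

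T cells held few Tyrobp reads. In memory-like CD8 cells of TAS-Seq it had 16 reads (5.12 CPM), and no cell reached 5 reads at equal depth. In BD WTA it had 56 reads (56.7 CPM), which came from 2 cells, 1 with 1 read of the T-cell receptor complex genes and 78 reads of Fcer1g, and 1 with 281 reads of Trdc, a constant gene of the gamma-delta T-cell receptor. B-like cells held more than other T cells. Tyrobp stood there at 66.6 CPM (63.0 to 70.3) in TAS-Seq and 34.2 CPM (31.3 to 37.2) in BD WTA, and 8.18% (5.67 to 11.4%) and 5.14% (3.02 to 8.10%) of B-like cells had 5 or more reads, against 0.851% (0.103 to 3.04%) and 0 of 250 other T cells (exact upper bound 1.46%).

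Hcst was read in every class, with its highest pooled levels in NK-like and T cells and its lowest in B-like cells. Its pooled levels in TAS-Seq were 406 CPM (368 to 447) in NK-like, 385 CPM (364 to 408) in memory-like CD8, 286 CPM (277 to 296) in other T, 212 CPM (188 to 237) in myeloid-like and 66.9 CPM (63.3 to 70.6) in B-like cells. In BD WTA the same classes stood at 319 (287 to 354), 283 (250 to 318), 238 (230 to 247), 56.6 (44.8 to 70.7) and 25.6 CPM (23.2 to 28.2). The order was thus the same in both libraries, and the ratio of NK-like over memory-like CD8 cells, next to each other in it, had intervals that included 1 (1.05, 0.940 to 1.18, and 1.13, 0.963 to 1.33). At 5 reads, 38.7% (32.5 to 45.3%) and 32.4% (26.6 to 38.6%) of other T cells had Hcst, against 9.46% (6.75 to 12.8%) and 3.32% (1.67 to 5.87%) of B-like cells.

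The balance of the adaptors therefore differed between classes. Tyrobp made up 85.9% (84.5 to 87.1%) and 85.7% (84.2 to 87.0%) of the reads of both adaptors in NK-like cells of TAS-Seq and BD WTA, and 93.3% and 97.0% in myeloid-like cells. It made up 3.41% and 4.42% in other T cells, 1.31% and 16.7% in memory-like CD8 cells and 49.9% and 57.2% in B-like cells. These are shares of reads not scaled to transcript length, so they are compared between classes and not read as the ratio of molecules. The value of memory-like CD8 cells in BD WTA includes the 2 cells described above, which held every Tyrobp read of that class.

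**Figure D5:**
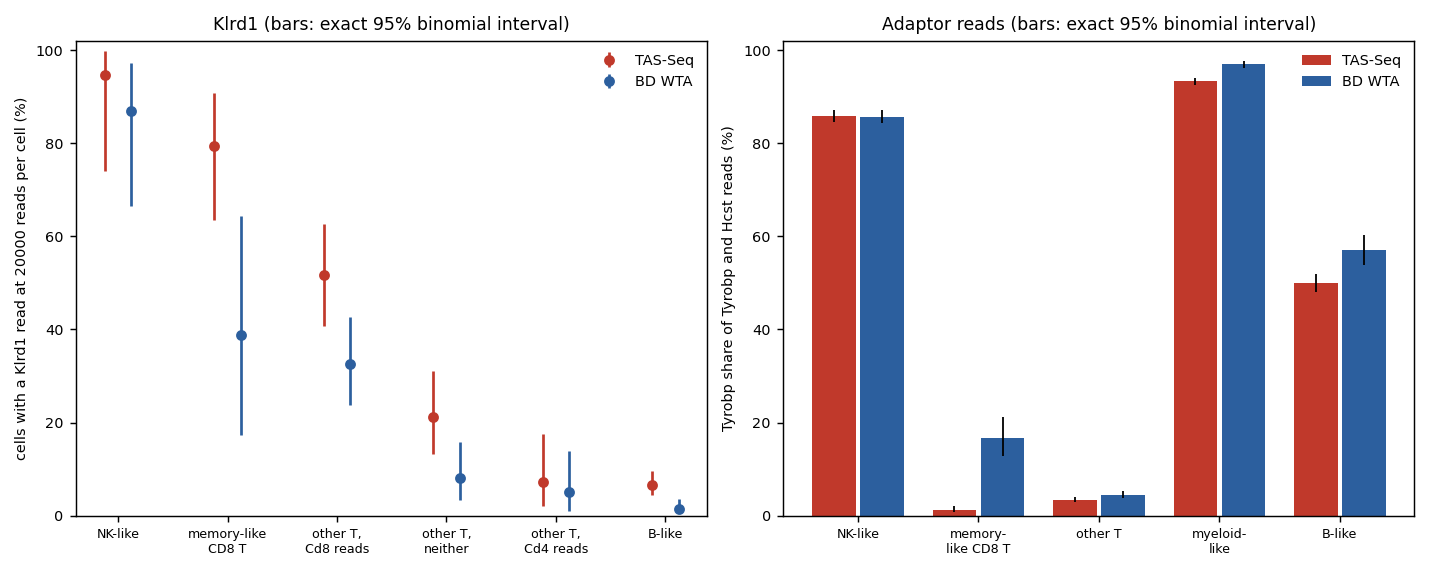
Left, percent of cells with a Klrd1 read at 20000 reads per cell, by class and, for other T cells, by coreceptor reads; right, Tyrobp as a percent of Tyrobp and Hcst reads by class; red is TAS-Seq, blue is BD WTA, and bars on points or columns are exact 95% binomial intervals. Klrd1 falls from 94.7% and 87.0% of NK-like cells to 7.27% and 5.00% of other T cells with Cd4 reads, and the Tyrobp share is above 85% in NK-like and myeloid-like cells and below 5% in other T cells.

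Myeloid-like cells had no read of Ncr1, Klrb1c, Klre1 or Klrc1 in either library, with floors of 3 reads at 2.103 and 2.178 CPM. Klrk1 and Klrd1 were not at 0. Klrd1 stood at 239 CPM (214 to 266) in TAS-Seq and 90.7 CPM (75.5 to 108) in BD WTA, and Klrk1 at 75.02 CPM (61.5 to 90.7) and 12.3 CPM (7.19 to 19.8). Apart from 1 Klrd1 read, these reads lay in cluster 9. There, 5 of 15 TAS-Seq and 3 of 16 BD WTA cells had 5 or more Klrd1 reads, of which 4 and 3 had 5 or more reads of at least 2 conventional dendritic markers, 4 and 2 of at least 2 monocyte or macrophage markers, and 2 and 0 of at least 2 plasmacytoid dendritic markers. Klrk1 reached 5 reads in 3 and 1 cells of the cluster.

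Further genes of these receptor families were taken as lists of symbols and compared between NK-like and other T cells. A gene was counted where it reached 50 CPM in either class of either library and differed at least 4-fold, in the same direction, in both. Of all 5708 genes at that level, 3.91% were higher and 1.82% lower in NK-like cells. Genes with few reads in other T cells could reach the level only through NK-like cells, so the counts describe the lists and support nothing further. Of the 11 Ly49 genes, which encode lectin-like receptors for class I molecules, 8 were counted as higher and the other 3 did not reach 50 CPM. Klra4 stood at 1932 CPM in TAS-Seq and 1284 CPM in BD WTA, Klra8 at 1285 and 407 CPM and Klra9 at 810 and 899 CPM. Stretches of 50 bases found in another Ly49 gene made up 29.8% of those of Klra9, 13.0% of those of Klra8 and 4.26% of those of Klra4, so the counts of Klra9 and Klra8 in particular are uncertain. Of 10 other lectin-like receptor genes, 6 were counted as higher and the other 4 did not reach 50 CPM. Klrc2, which encodes NKG2C, stood at 815 and 743 CPM, and Klrg1, a receptor of mature NK cells, at 208 and 82.5 CPM.

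Receptors of the immunoglobulin and SLAM families were divided. Of 8 genes, Cd244a, Slamf7, Crtam and Fcgr3 were at least 4-fold higher in both libraries and Tigit did not reach 50 CPM. Slamf6, Cd226 and Cd96 reached it and were not 4-fold higher or lower in both, and Slamf6 was at 2.93 and 52.9 CPM in NK-like cells against 153.1 and 101.5 CPM in other T cells. Of 5 further adaptors, 3 reached 50 CPM. Fcer1g, whose product carries the signal of NKp46 and of CD16, stood at 1504 and 1720 CPM in NK-like and 17.3 and 10.9 CPM in other T cells, while Cd247 (the zeta chain) and Sh2d1a (SAP) were within 4-fold. Myeloid-like cells held Fcer1g at 1074 and 2632 CPM. They held Fcgr3 at 283 and 317 CPM, against 74.1 and 92.4 CPM in NK-like cells. Of 14 signalling genes, all at 50 CPM or more in a class, the kinase gene Syk (9.42-fold and 36.3-fold), Lat2 (38.6-fold and 49.5-fold) and Plcg2 (4.401-fold and 4.435-fold) were at least 4-fold higher, and Lat was at least 4-fold lower, with ratios of 0.207 and 0.122. The other 10, including Zap70, Lck and Fyn, were not 4-fold higher or lower in both libraries. In B-like cells Syk stood at 349 and 405 CPM, against 130 and 292 CPM in NK-like cells. Lat2 stood at 117 and 172 against 83.9 and 161 CPM, and Plcg2 at 146 and 219 against 48.8 and 96.0 CPM. The signalling genes were not left out of the clustering, and Lat was a leading gene of other T clusters 0 and 6. Of 11 ligand genes, 5 were listed in the tables and 2 reached 50 CPM. They were H2-T23, which encodes Qa-1, and Clec2d, at 207 and 158 CPM and 246 and 61.0 CPM in NK-like cells, and neither was 4-fold higher or lower in both libraries.

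Likeness was measured as Pearson's r of log2(CPM + 1) over the 732 TAS-Seq and 708 BD WTA cells, among 13280 genes read in at least 10 cells of each library, and genes were ranked by the lower of the libraries' values. These are descriptions over cells that share a library and differ in depth. The most like genes were Klra9 for Ncr1 (r = 0.69 in TAS-Seq, 0.71 in BD WTA) and for Klre1 (0.69, 0.74), Klrk1 for Klrb1c and Klrb1c for Klrk1 (0.63, 0.70), and Klrc2 for Klrc1 (0.84, 0.77), a pair with shared stretches of transcript. Klrd1 was most like Nkg7 (0.59, 0.47), followed by Ccl5 and Ctsw, genes of both NK and CD8 T cells. Tyrobp was most like Fcer1g (0.60, 0.75), followed by Fgl2 and Itgam, and Hcst was most like the T-cell receptor gene Trbc2 (0.41, 0.37), followed by Ms4a4b and Trac. For 5 of the receptors the 3 most like genes were therefore all lectin-like NK receptors, and for Klrd1 and both adaptors none was.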

How the data were processed

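Spleen cells were profiled in 1 TAS-Seq and 1 BD WTA library, grouped by their titles. The deposited tables hold counts made by the authors: whole reads per gene and cell barcode, not normalized and without molecular identifiers. Per the study's methods, reads were trimmed with cutadapt, mapped with bowtie2 2.4.2 to mouse transcripts (GRCm38) on the forward strand and kept for barcodes above the inflection point. The submitters' processing notes name cutadapt 2.10 and R 3.6.3. Whether a described background subtraction was applied to these tables is not given in the sources used here. Mapping to transcripts can place reads on near copies, and reads copied by amplification are all counted.

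The filter kept cells in which 500 or more genes were read and mitochondrial genes took no more than 0.25 of the reads. Both libraries were clustered together in scanpy 1.11.5 (2000 variable genes, library centred, reads regressed out, 20 principal components, or 15 in the repeat round, 15 neighbours, resolution 1) without the members and related receptors and adaptors, and cells outside B-like clusters were clustered again. A cluster was named where at least 3 markers of a list were 1 or more higher in mean log2(CPM + 1) and read in at least 50% of its cells. Where the repeat round gave no name, the class of the earlier round was kept. Doublets were called with Scrublet (expected rate 0.05) and kept; Scrublet called 3 TAS-Seq and 4 BD WTA cells, and whether doublets had been removed before deposit is not given in the sources used here. Barcodes are whole cells of 1 pool, so no test between libraries was made. Differences are pooled CPM ratios with exact conditional intervals, and shares have exact Clopper-Pearson intervals. The fold and interval functions were tested on simulated data. TMM factors (edgeR 4.0.16) were an alternative. Positions and transcripts came from GENCODE M21, promoters from RefSeq (GRCm38.p6). The members, gene lists and markers were chosen with earlier results of these data known, and the naming and gate rules were set after the clusters were seen. Named genes are the members, the listed related genes and the 3 genes most like each member.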

Additional observations from a re-analysis of the deposited data

Results flagged for a closer look

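3 differences between classes had opposite signs in the libraries, and none of these differences was tested. Klrb1c was lower in memory-like CD8 than in other T cells of TAS-Seq (3.84 against 30.9 CPM, a difference of -27.1 CPM) and higher in BD WTA (49.6 against 17.5 CPM, a difference of 32.1 CPM). The memory-like values rest on 12 reads, 83.3% of them in 1 cell, and on 49 reads, 42.9% in 1 cell. Klrd1 was higher in myeloid-like than in other T cells of TAS-Seq (239 against 142 CPM, a difference of 97.6 CPM) and lower in BD WTA (90.7 against 137 CPM, a difference of -46.6 CPM), with 49.9% and 56.0% of the myeloid-like reads in 1 cell. Tyrobp was lower in memory-like CD8 than in other T cells of TAS-Seq (5.12 against 10.1 CPM, a difference of -4.99 CPM) and higher in BD WTA (56.7 against 11.02 CPM, a difference of 45.7 CPM). Other T cells with fewer than 5 reads over Cd3d, Cd3e, Cd3g and Trac were left out after the values were seen. Tyrobp then stood in other T cells at 3.04 CPM in TAS-Seq and at 0.0859 CPM in BD WTA, both below the memory-like values. The TAS-Seq ratio of memory-like CD8 over other T cells was 1.69 (0.878 to 3.10), an interval that included 1. Memory-like cells were not filtered in this way. In BD WTA, 35 of their 56 Tyrobp reads came from 1 cell with 1 read over these 4 genes. The signs are therefore not read as agreement between the libraries.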

How the results depend on the processing

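No paired analysis was possible because there is a single library per method and nothing here was tested. The 7 of 8 members at least 4-fold higher in NK-like than in other T cells stayed 7 under every alternative that gave a value, including the removal of other T cells with fewer than 5 reads over Cd3d, Cd3e, Cd3g and Trac, chosen after the values were seen. The median library ratio (log2, TAS-Seq over BD WTA) in NK-like cells (0.19) ran from -0.05 with a per-cell gate, where its sign changed, to 0.23 with TMM factors. Of 117 values under alternatives, 105 stayed within their interval or range and 12 moved. Some could not move, so the count overstates how far the values were tried. No doublet was called in TAS-Seq NK-like cells or in the memory-like CD8 and myeloid-like classes, so removing doublets left their shares unchanged. The median library ratio was the same with no minimum level and with a minimum of 10 CPM. Its value with the gate was counted as staying. A minimum of 5 reads moved Klrd1 in memory-like CD8 cells of TAS-Seq from 79.5% to 59.0%, Klrk1 in those of BD WTA from 11.1% to 0%, Hcst in other T cells from 57.4% to 38.7% and from 40.8% to 32.4%, and any receptor read in B-like cells from 13.6% to 0.256% and from 1.51% to 0.302%. The B-like share of TAS-Seq was 6.91% at 10000 reads per cell and 24.0% without thinning. The gate gave 0% for Klrk1 in memory-like CD8 cells of BD WTA. Tyrobp in myeloid-like cells was read in 91.3% of 23 cells in each library. It was read in 100% of 10 TAS-Seq and 11 BD WTA cells with the members kept in the clustering. In BD WTA clustered alone it was read in 100% of 12 cells. These settings thus placed fewer cells in the class. Each library clustered alone gave no NK-like or myeloid-like class in TAS-Seq and no memory-like CD8 class in BD WTA, so those values could not be had. The causes were not tested. Klrk1 in memory-like CD8 cells of TAS-Seq ran from 9.38% with the library clustered alone to 28.2% without thinning (15.4% as reported). Shares of the small classes have wide intervals, as for the 18 memory-like CD8 cells of BD WTA.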
